A study of Caenorhabditis elegans with 6 samples.

Results

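All 6 RNA sequencing libraries of the series were placed on 2 sides by the level of rol-6, a cuticle collagen of growing larvae, with 3 libraries on the low side and 3 on the high side. The worms were wild-type Caenorhabditis elegans of strain N2, collected as 5-day-old adults at 20 °C. As larvae they were fed either bacteria carrying the empty vector L4440 (control, 3 libraries) or bacteria that silence the yolk gene vit-5 by RNA interference (vit-5 RNAi, 3 libraries), and as young adults both groups were moved to OP50 bacteria. Total RNA came from whole worms, and each library lists FPKM values (fragments counted on each gene, corrected for transcript length and sequencing depth). Whether replicates were separate cultures is not stated, so each p-value below reflects variation among these 6 libraries, possibly of technical origin.

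The side of each library was set by its rol-6 value alone. The low side held vit-5 RNAi 1, control 1 and vit-5 RNAi 2, and the high side held control 2, control 3 and vit-5 RNAi 3, where the number is the replicate number of the title. Values below are given in this order, first the 3 low and then the 3 high libraries. The libraries just below and just above the split were vit-5 RNAi 2 at 27.8 FPKM and control 2 at 107 FPKM of rol-6. Because a measured gene chose the sides, differences between them are a description and carry no test. Each is high minus low on the log2(FPKM + 1) scale with the RNAi group as a covariate, which equals the mean of the difference within control and the difference within vit-5 RNAi.

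The cuticle of C. elegans is made mostly of collagens secreted by the hypodermis and the seam cells, and it is rebuilt at each larval molt. Collagen genes are switched on in waves during each molting cycle, and some are used in larvae while others, such as col-19, belong to the adult cuticle. RNA of whole worms mixes all tissues, from the cuticle-making epidermis to the germline. A gene's higher level may therefore reflect more cells of a type or more RNA per cell, and these cannot be told apart in such samples.

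The 3 marker genes were low in the same libraries and high in the same libraries. The gene rol-6, whose dominant mutations make worms roll, lies at chrII:8733050-8734239 (WBcel235) and had 3.15, 3.41 and 27.8 FPKM on the low side and 107, 117 and 202 FPKM on the high side. The collagen sqt-1, at chrII:11336693-11337837, had 3.74, 3.50 and 34.2 FPKM against 123.2, 141 and 205 FPKM. The collagen dpy-13, needed for normal body length and located at chrIV:4235617-4236710, had 5.92, 6.52 and 55.6 FPKM against 234, 275 and 350 FPKM. For all 3 genes vit-5 RNAi 1 and control 1 were close together, vit-5 RNAi 2 stood between them and the high side, and vit-5 RNAi 3 was highest. The differences were 4.45 for rol-6, 4.44 for sqt-1 and 4.61 for dpy-13. Both sqt-1 and dpy-13 are collagens like rol-6, and the split was chosen with earlier results of these data known. Nothing is therefore read from their agreement with rol-6.

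**Figure D1:**
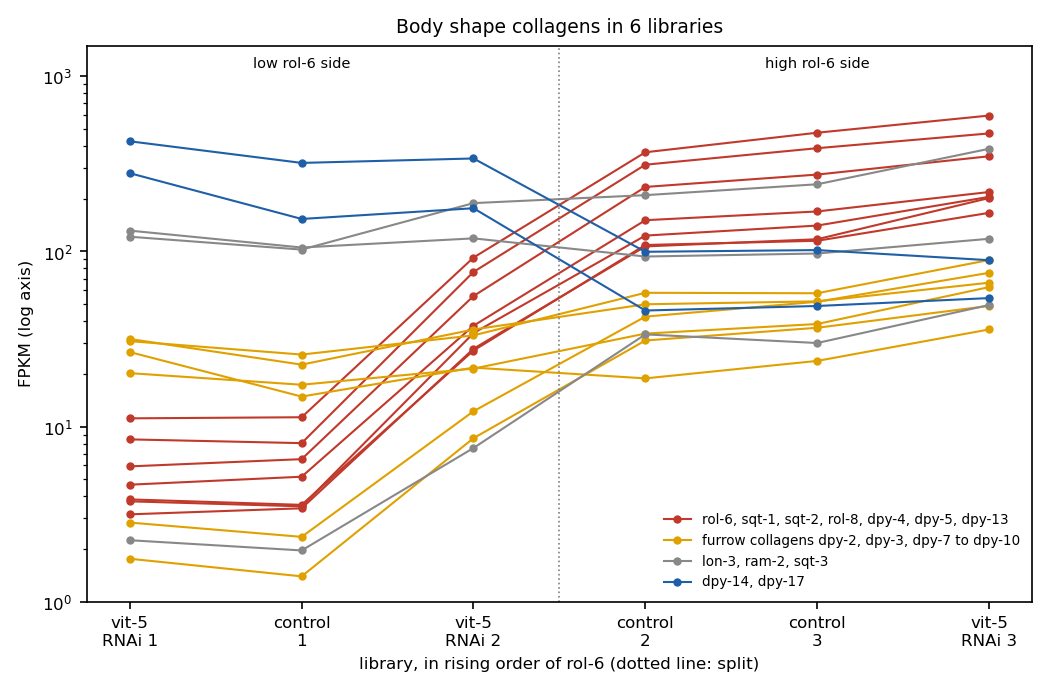
FPKM (log axis) of larval body shape collagens in each of the 6 libraries, in rising order of rol-6, with a dotted line at the split. The collagens near rol-6 run together from 3 to 12 FPKM in the first 2 libraries to 166 FPKM or more in vit-5 RNAi 3, while dpy-10 stays between 14.8 and 35.9 FPKM.

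Most larval body shape collagens were higher on the high side, and a few were not. Of 19 genes on this list 18 had at least 1 FPKM in at least 3 libraries and were compared. Of these, 14 were higher and 2 lower, counted when the sides did not overlap and the log2 difference was at least 1 in size. Over all 12908 genes compared 518 were higher and 83 lower by the same count, which is 4.01% and 0.643%, and since these genes are near relatives of the one that chose the sides, nothing is read from the contrast. The median difference of the list was 3.47, with 3.65 within control and 3.27 within vit-5 RNAi, beside a median of -0.10 over all genes compared.

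Within the list the collagens fell into groups, named here after their values were seen. Together with rol-6, sqt-1 and dpy-13, the genes sqt-2, rol-8, dpy-4 and dpy-5 formed a group of 7 with a median difference of 4.45. The largest difference among them was that of dpy-4, a cuticle collagen on chromosome IV, with 8.45, 8.04 and 76.4 FPKM on the low side and 313, 389 and 472 FPKM on the high side. In dpy-5, on chromosome I, the values were 11.1, 11.3 and 92.3 FPKM against 369, 476 and 597 FPKM. The sides did not overlap in either gene, and the order of the libraries was nearly the same as for rol-6.

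The furrow collagens, which form the circular grooves of the cuticle, differed by less in most members. Of 6 genes 5 were higher, with a median difference of 1.29. The differences were 3.63 for dpy-9 and 3.57 for dpy-8, but 1.30 for dpy-7, 1.28 for dpy-2 and 1.05 for dpy-3. In dpy-7 the levels were 30.7, 25.8 and 33.2 FPKM on the low side and 58.1, 57.7 and 89.3 FPKM on the high side. The low side of dpy-7 did not show the step at vit-5 RNAi 2 that rol-6 showed. In dpy-10 the sides overlapped, with 26.6, 14.8 and 21.7 FPKM against 18.8, 23.7 and 35.9 FPKM. Levels of sqt-3, a collagen required from the embryo on, were 132, 105 and 118.8 FPKM against 93.5, 97.3 and 118 FPKM, with a difference of -0.11.

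A few cuticle genes ran the other way and stepped cleanly between the sides. The collagen dpy-17, which is needed for secretion of SQT-3, had 426, 320 and 340 FPKM on the low side and 99.6, 102 and 89.1 FPKM on the high side, a difference of -1.87. The collagen dpy-14 had 280, 153 and 177 FPKM against 46.0, 48.8 and 54.2 FPKM, a difference of -1.85. In both genes the 3 high-side libraries lay close together, and vit-5 RNAi 2 stood with the rest of the low side rather than between the sides. The same form was seen in col-74, col-121, col-165 and cut-3, and these 6 genes, put together after their values were seen, had a median difference of -1.84. Levels of cut-3, a cuticlin, were 90.2, 58.3 and 54.4 FPKM on the low side and 13.7, 14.5 and 25.1 FPKM on the high side. Levels of col-74 were 182 and 116 FPKM in vit-5 RNAi 1 and control 1 and 120 FPKM in vit-5 RNAi 2, against 29.6, 30.7 and 34.3 FPKM.

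**Figure D2:**
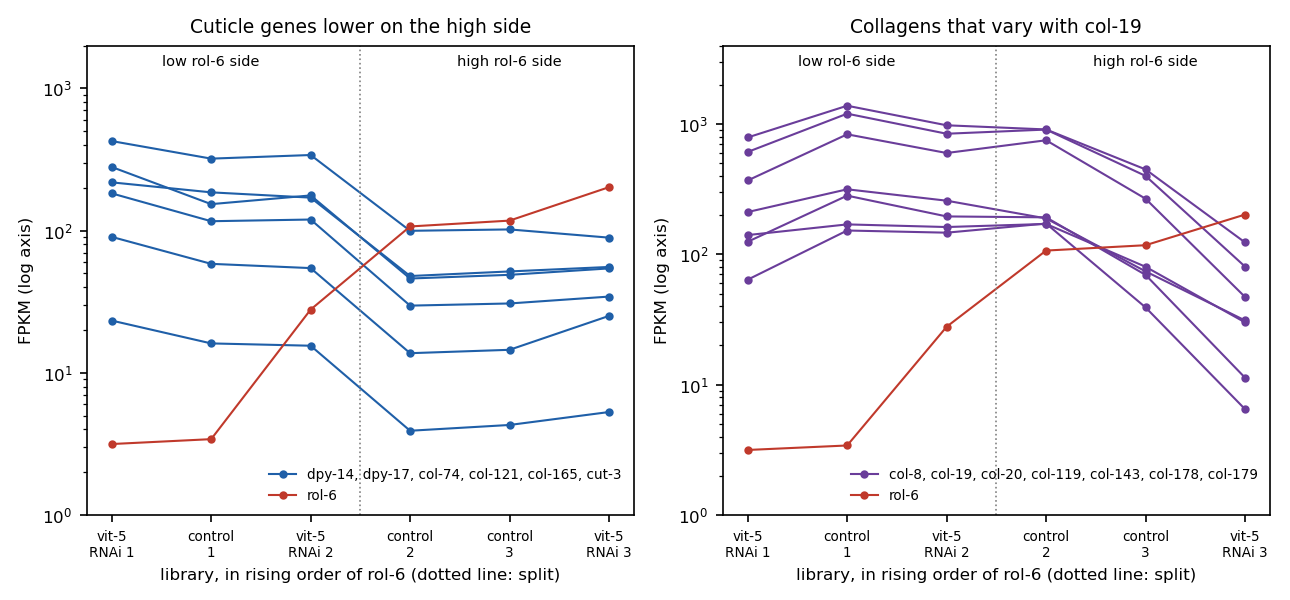
FPKM (log axis) in the 6 libraries for cuticle genes with negative high minus low differences, split into the dpy-17 group and the col-19 group. In the col-19 group the sides overlapped in every gene but col-8. Genes of the first group step down between vit-5 RNAi 2 and control 2, and genes of the second are lowest in vit-5 RNAi 3 and next lowest in control 3.

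The wider col family held genes of 3 kinds. Of 157 listed col genes 113 were compared, and the median difference was 0.89. Of these, 52 were higher and 4 lower, beside 4.01% and 0.643% of all genes. The col genes are relatives of rol-6, so nothing is read from that contrast, and 2 passed the filter only through the high side and so had to differ. By size alone, 54 differed by at least 1, 40 lay between, and 19 differed by -1 or less. The col gene with the largest difference was col-73 on chromosome II, with 4.20, 4.66 and 42.6 FPKM on the low side and 178.8, 256 and 352 FPKM on the high side, a difference of 4.90. In col-90 the values were 3.81, 5.80 and 32.7 FPKM against 145, 215 and 332 FPKM, a difference of 4.71. Both genes followed the order of rol-6, with vit-5 RNAi 2 intermediate. Among all genes 32 were higher by at least 3, and 21 of these carry collagen names. The gene that chose the sides, rol-6, is itself 1 of the 21 and the others are its relatives, so nothing is read from that count. Summed over the list, the col genes came to 11655, 17387 and 16919 FPKM on the low side and 20924, 17017 and 16795 FPKM on the high side, so the sums overlapped while single genes moved by more than 4 on the log2 scale.

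Among the 19 col genes with differences of -1 or less, 16 had vit-5 RNAi 3 and control 3 as their lowest libraries, and the other 3 were col-74, col-121 and col-165. This arrangement was seen in 584 of all 12908 genes, or 4.52%, a set not chosen for lower values on the high side. The 19 genes were so chosen, and both libraries lie on that side, so nothing is read from the contrast. The adult collagen col-19 is one of the 16, with 140, 170 and 162 FPKM on the low side and 171, 80.2 and 30.1 FPKM on the high side. Its level in control 2 was the highest of all 6, and its difference was -0.53 within control and -2.29 within vit-5 RNAi. In col-119 the values were 788, 1380 and 977 FPKM against 908, 448 and 123.4 FPKM, and in col-20 they were 63.9, 152 and 147 FPKM against 172, 39.1 and 6.49 FPKM. In col-8 the sides did not overlap, with 211, 315 and 258 FPKM against 189, 73.98 and 31.1 FPKM and a difference of -2.14. A group of 7 with col-19, col-8, col-20, col-119, col-143, col-178 and col-179, chosen after the values were seen, had a median of -2.09, and col-8 was its only member without overlap. Of the list of 6 adult collagens only col-19 and col-62 were compared, and col-62 was near 1 FPKM throughout, with a difference of 0.30. Near-identical copies within the col family can share reads, so values of single members are uncertain.

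Collagens of other stages were near 0 except in control 3. None of the 3 dauer collagens listed reached the filter. In control 3 the genes col-2, col-37 and col-40 had 4.90, 3.63 and 5.62 FPKM and the blister collagen gene bli-6 had 2.35 FPKM. Genes with at least 2 FPKM in 1 library and under 0.5 FPKM in each of the other 5 numbered 18 in control 3, of which 10 were collagens, beside 9 in vit-5 RNAi 3 with 0 collagens. The other 4 libraries had 1 to 4 such genes each. Control 3 therefore carried a trace of cuticle genes that stood below 0.5 FPKM in control 2 and vit-5 RNAi 3, the other high-side libraries.

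The molting genes were higher on the high side in part and by less than the body shape collagens. Of 48 listed genes 42 were compared, 9 were higher, beside 4.01% of all genes, and 0 lower. The median difference was 0.62, with 0.38 within control and 0.86 within vit-5 RNAi. The protease inhibitor bli-5 had 0.99, 0.94 and 1.03 FPKM on the low side and 4.03, 3.97 and 7.08 FPKM on the high side, a difference of 1.69. The gene mlt-8, whose loss blocks molting, had 50.96, 38.3 and 41.9 FPKM against 79.8, 104.1 and 148 FPKM, a difference of 1.44. Neither gene was raised in vit-5 RNAi 2. The gene phy-2, for a subunit of the enzyme that hydroxylates collagen prolines, had 10.9, 7.27 and 16.43 FPKM against 13.8, 24.8 and 67.2 FPKM. In phy-2 the sides overlapped, although its difference of 1.74 was the largest on the list. Others that were higher were qua-1, a hedgehog-related gene needed for molting, at 1.58 and dpy-6, a mucin-like gene, at 1.44. At the other end, the cuticlin cut-2 had a difference of -0.86.

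Regulators of molting and developmental timing had a median difference of 0.02. Of 21 listed 20 were compared, 1 was higher and 0 were lower, a share near the 4.01% of all genes that were higher. The gene lin-42, a relative of Period that cycles with the molts, had 4.87, 4.26 and 6.63 FPKM on the low side and 13.5, 17.01 and 24.1 FPKM on the high side, a difference of 1.77. All 3 high libraries lay above all 3 low ones. The gene hbl-1, a Hunchback relative of early larval timing, had 7.75, 4.85 and 6.70 FPKM against 1.58, 1.86 and 3.61 FPKM, a difference of -0.97. The nuclear receptor nhr-23, which drives molting gene cycles, had 15.7, 16.3 and 14.2 FPKM against 8.93, 9.87 and 13.8 FPKM. The heterochronic gene lin-14 overlapped between the sides, with 10.4, 6.47 and 10.3 FPKM against 4.71, 5.61 and 13.6 FPKM, and lin-28 and lin-29 had differences of -0.16 and 0.37.

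**Figure D3:**
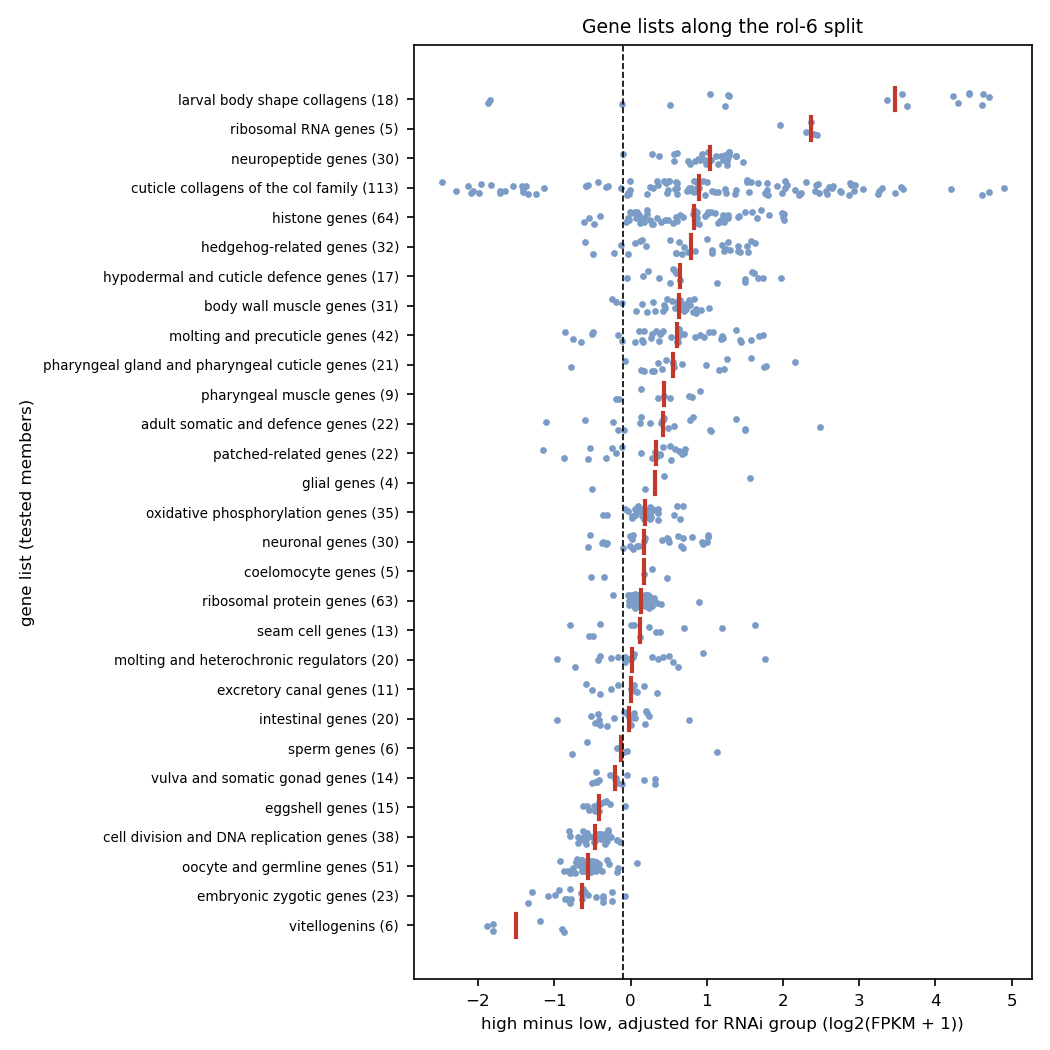
High minus low differences on the log2(FPKM + 1) scale for the compared genes of each list, 1 point per gene, with the list's median and a line at the median of all 12908 genes, -0.10. Larval body shape collagens lie farthest to the right with a median of 3.47, and the oocyte and germline list lies near -0.55.

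Genes of the epidermis other than collagens were higher in part. Of 59 hedgehog-related genes 32 were compared and 13 were higher, beside 4.01% of all genes, with 0 lower and a median of 0.80. Of those compared 2 passed the filter only through the high side and so had to differ. The gene grd-10, of the groundhog family and expressed in seam cells, had 67.2, 51.5 and 117 FPKM on the low side and 177, 163 and 267 FPKM on the high side, a difference of 1.64. The gene wrt-10, of the warthog family, had a difference of 1.54 and grd-6 had 1.53. The patched-related genes, whose relatives bind hedgehog proteins in other animals, had 0 higher and 0 lower of 22 compared, with a median of 0.33. Among 13 seam cell genes compared, grd-10 alone was higher, and the seam regulator egl-18 had 58.6, 58.8 and 57.3 FPKM against 43.5, 38.4 and 27.1 FPKM. Of 17 hypodermal defence genes 5 were higher, among them nlp-33, an antimicrobial peptide gene, with 127, 109 and 212 FPKM against 281, 304 and 629 FPKM. The caenacin gene cnc-2 had a difference of 1.62 and also did not overlap.

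The pharynx and muscle lists also had medians above 0. Of 21 pharyngeal gland and pharyngeal cuticle genes compared 7 were higher, beside 4.01% of all genes, and 0 lower, with a median of 0.56. The pharyngeal cuticle gene abu-15 had 0.593, 0.558 and 3.76 FPKM on the low side and 4.96, 8.91 and 10.2 FPKM on the high side. Of 31 body wall muscle genes, with a median of 0.63, 0 were lower and 1 was higher, or 3.23%, near the share of all genes. That gene was dim-1, an immunoglobulin-domain protein of muscle attachments, with 77.7, 64.6 and 84.7 FPKM against 103.8, 142 and 181 FPKM. In dim-1 the sides did not overlap, and the highest low-side library was again vit-5 RNAi 2. At any size of difference 11 of the 31 body wall muscle genes were higher without overlap, beside 8.17% of all genes. At any size 0 of them were lower without overlap, beside 21.8% of all genes. The pharyngeal muscle list had 0 higher of 9 and a median of 0.44.

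The neuropeptide and neuronal lists differed in their medians, which were not compared by a test. Of 30 FMRFamide-like peptide genes compared 12 were higher, beside 4.01% of all genes, and 0 lower, with a median of 1.04. The peptide gene flp-9 had 50.5, 47.7 and 59.9 FPKM on the low side and 67.7, 115 and 209 FPKM on the high side, a difference of 1.39. The 30 neuronal genes had a median of 0.18, with -0.13 within control and 0.61 within vit-5 RNAi. Among them cho-1, a choline transporter gene, alone was higher, or 3.33%, near the share of all genes. The carboxypeptidase gene egl-21, which matures neuropeptides, had 44.7, 42.3 and 59.96 FPKM against 57.6, 85.4 and 130 FPKM and overlapped because control 2 lay below vit-5 RNAi 2. The intestinal list had 0 higher and 0 lower of 20, with a median of -0.02. The excretory canal list had 0 of 11 and 0.00, the coelomocyte list 0 of 5 and 0.18, and the vulva and somatic gonad list 0 of 14 and -0.20. Of 4 glial genes compared vap-1 alone was higher. Medians were 0.14 over 63 ribosomal protein genes and 0.20 over 35 genes of oxidative phosphorylation. At any size of difference 5 of the ribosomal protein genes and 17 of the oxidative phosphorylation genes were higher without overlap, beside 8.17% of all genes, and 0 of either list by at least 1.

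Germline and oocyte genes were lower on the high side by small amounts in nearly every member. Of 51 genes compared 0 were lower by at least 1, but 42 had all 3 high libraries below all 3 low ones at any size of difference. Over all genes compared that was so for 2820, or 21.8%, and the reverse for 1055, or 8.17%. The list's median was -0.55, with -0.44 within control and -0.67 within vit-5 RNAi. The gene gld-1, for an RNA-binding repressor of the germline, had 527, 608 and 504 FPKM on the low side and 371, 386 and 265 FPKM on the high side, a difference of -0.82. The Notch receptor gene glp-1, which maintains germline stem cells, had 25.7, 13.2 and 16.15 FPKM against 6.37, 7.42 and 9.75 FPKM. Cell division and DNA replication genes had a median of -0.47, with 25 of 38 lower without overlap, and eggshell genes had -0.42, with 9 of 15.

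The embryonic list had a negative median too. Of 35 listed zygotic genes 23 were compared, with a median of -0.64. Without overlap 10 were lower, beside 21.8% of all genes, and 1 of them by at least 1, beside 0.643%. That gene was hch-1, a protease used in hatching, with 22.6, 16.6 and 16.21 FPKM on the low side and 7.74, 8.87 and 4.95 FPKM on the high side. The T-box gene tbx-11 overlapped, with 16.38, 18.3 and 8.84 FPKM against 17.4, 12.6 and 1.67 FPKM, and its low value in vit-5 RNAi 3 made most of its difference of -1.29. Of 55 sperm genes 6 reached the filter, and ssp-28 alone was higher. The part of germline and embryo tissue in the other differences was not tested.

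The vitellogenins, yolk genes of the adult intestine, need the RNAi group beside them, since vit-5 was silenced. Levels of vit-5 were 2335, 1396 and 1573 FPKM in control 1, 2 and 3 and 116, 51.6 and 22.8 FPKM in vit-5 RNAi 1, 2 and 3, so all 3 vit-5 RNAi libraries lay below all 3 controls. Levels of vit-3 were 1003, 559 and 510 FPKM in control 1, 2 and 3 and 62.5, 28.8 and 5.66 FPKM in vit-5 RNAi 1, 2 and 3. The vit-5 RNAi minus control difference was -4.83 for vit-3 and -5.48 for vit-4, each with a limma adjusted p of 0.122. The median difference between the rol-6 sides over the 6 vitellogenins was -1.50, with -0.82 within control and -1.94 within vit-5 RNAi. These medians include vit-3, vit-4 and vit-5, whose differences within vit-5 RNAi, -2.71, -2.71 and -1.72, are among strongly lowered levels. Without overlap 2 of the 6 were lower, vit-1 and vit-6, beside 21.8% of all genes, and nothing is read from so few. By at least 1 vit-1 alone was lower, beside 0.643% of all genes. Levels of vit-1 were 229, 231 and 218 FPKM on the low side and 95.1, 74.1 and 49.2 FPKM on the high side. Levels of vit-6 were 4925, 3537 and 5595 FPKM against 2007, 2567 and 2433 FPKM, a difference of -0.87.

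Histone genes in part, and the ribosomal RNA genes compared, were higher on the high side. Of 64 histone genes compared 23 were higher, beside 4.01% of all genes, and 0 lower, with a median of 0.83. Of those compared 2 passed the filter only through the high side and so had to differ. At any size of difference 40 were higher without overlap, beside 8.17% of all genes, and 1 was lower without overlap. The histone H4 gene his-10 had 2.15, 1.30 and 3.25 FPKM on the low side and 7.25, 6.13 and 16.9 FPKM on the high side. Many histone genes are near-identical copies. Of the 64 compared, 56 had a mean under 50 FPKM, so the list median and the counts rest mostly on genes of low level. Summed over the 64, histone genes came to 2122, 2153 and 2332 FPKM on the low side. On the high side the histone sums were 2829, 2661 and 2886 FPKM. All 5 ribosomal RNA genes compared were higher, with a median of 2.37. The large-subunit gene rrn-3.1 had 1322, 3212 and 2432 FPKM against 14673, 4998 and 17912 FPKM. Ribosomal RNA took 0.272%, 0.596% and 0.447% of the FPKM sum on the low side and 2.54%, 0.864% and 3.46% on the high side. The order of the libraries differed from that of rol-6. In control 3 all rRNA genes together were 1.57 times control 1 where rol-6 was 34.4 times, and in vit-5 RNAi 2 they were 1.74 times vit-5 RNAi 1 where rol-6 was 8.82 times. The part of ribosomal RNA content in the other differences was not tested. With these genes taken out of the FPKM sum, which rescales each library, 496 genes were higher and 89 lower.

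**Figure D4:**
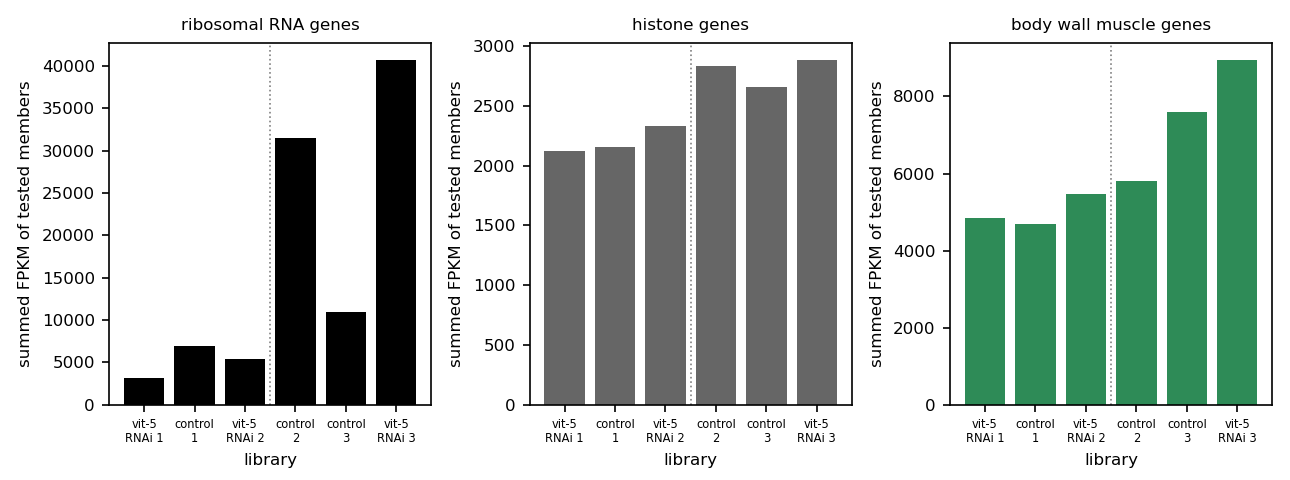
Summed FPKM (bars, 1 per library) of ribosomal RNA, histone and body wall muscle genes in the 6 libraries, in rising order of rol-6 with a dotted line at the split. Ribosomal RNA is higher in control 2 and vit-5 RNAi 3 than in control 3 at 10914 FPKM, while the body wall muscle sum is lower in control 2 than in control 3 and highest in vit-5 RNAi 3 at 8954 FPKM.

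The 518 genes that were higher over the whole table were not level within a side. The highest library was vit-5 RNAi 3 for 490 of them, or 94.6%, beside 36.8% of all genes compared. The count itself requires that a high-side library be highest. In 416 of the 518, or 80.3%, vit-5 RNAi 2 lay above both other low-side libraries, beside 30.65% of all genes compared. Its median place was 35.2% of the way from the mean of the other low-side libraries to the mean of the high side on the log2 scale. The 83 genes that were lower had vit-5 RNAi 3 as the lowest library in 35 cases. Of the 518 genes 40 passed the filter only through the high side and so had to differ. With control 2 left out 864 genes were higher, and the lower genes numbered 162 without control 1, 131 without control 2 and 125 without vit-5 RNAi 2. With a library left out fewer libraries have to be separated, so the rule of no overlap is easier to meet. The median sizes were 1.44 for the higher and -1.197 for the lower genes.

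**Figure D5:**
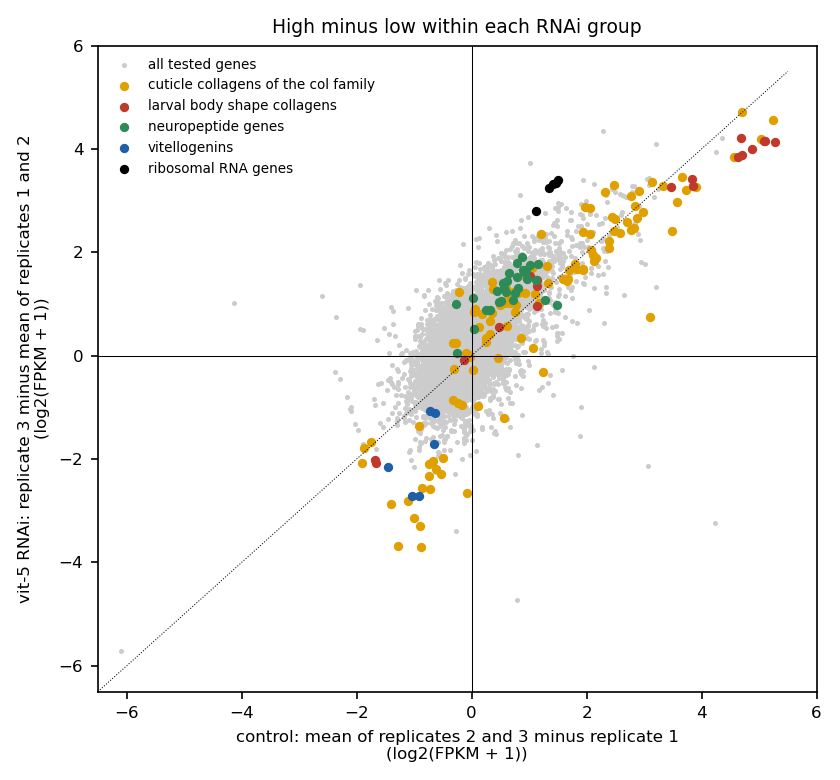
Difference between the sides within vit-5 RNAi against that within control for the 12908 genes compared, on the log2(FPKM + 1) scale, with list genes in colour. Across genes Pearson's r was 0.71, a description of pairs of values that share the choice of sides, and rol-6 lies at 4.68 within control and 4.21 within vit-5 RNAi.

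The largest difference among genes with a mean of at least 10 FPKM, after the collagens, belonged to C05G5.7 on the X chromosome, a gene with no role given here, at 9.08, 15.2 and 72.95 FPKM on the low side and 393, 277 and 506 FPKM on the high side. At the other end, Y71F9AL.19, a noncoding RNA gene, had 63.7, 67.2 and 40.996 FPKM on the low side and stood at 0.0001 FPKM, the value the files write in place of 0, in all 3 high-side libraries. T04C12.1 was lower by the count, with 29.1, 30.1 and 21.5 FPKM against 6.36, 8.67 and 6.92 FPKM. The genes that were higher had a median length of 1179 bases from start to end, beside 1506 for those that were lower and 2291 for all genes compared. By chromosome the share of compared genes that were higher ran from 2.39% on III to 5.38% on V.

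The comparison of vit-5 RNAi with control is the test the design allows, since the groups did not come from rol-6. By limma with Benjamini-Hochberg adjustment 0 of 12908 genes passed an adjusted p of 0.05, or 0.0%, and 3495 had an unadjusted p under 0.05, with a median log2 difference of 0.34 that became 0.06 with median-of-ratios scaling. Leaving out vit-5 RNAi 1 gave 4 genes and leaving out vit-5 RNAi 3 gave 5. For rol-6 the vit-5 RNAi minus control difference was -0.41 with a standard error of 1.58 and a limma adjusted p of 0.885. For dpy-13 it was -0.61 with a limma adjusted p of 0.832, for lin-42 -0.10 with 0.934 and for col-19 -0.58 with 0.549. Each group held libraries of both sides, and the standard errors of these genes carry that spread. For vit-5 the difference was -5.03 with a standard error of 0.50 and a limma adjusted p of 0.0552.

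Summed over genes, the groups overlapped in the same way. The larval body shape collagens came to 1798 ± 873 FPKM (SD, n = 3) in control and 1905 ± 1199 (SD, n = 3) in vit-5 RNAi, and the exact permutation test, 2-sided, gave p = 0.9. The molting genes came to 1702 ± 93.1 and 1859 ± 246 FPKM (SD, n = 3 each), with an exact permutation p of 0.4, where 0.1 is the smallest that 3 against 3 can give. Ribosomal RNA, histone and vitellogenin sums gave exact permutation p-values of 1.0, 0.9 and 0.4. With the rol-6 side as a covariate limma passed 1588 genes for the RNAi group, 1524 higher and 64 lower in vit-5 RNAi, and that covariate was chosen from these same values. Among the genes then passing was vit-5, at a limma adjusted p of 5e-05.

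As for the libraries themselves, the rough depth from the spacing of low values was 16800000 to 21200000 fragments, and it was lowest in vit-5 RNAi 3 and vit-5 RNAi 2. Those depths are approximate, and no counts were recovered from the FPKM, because just 26.1% to 28.4% of low values came within 0.1 of whole fragments against a chance share of 20%. Genes at or above 1 FPKM numbered 12931, 12272 and 12973 on the low side and 12041, 12438 and 13503 on the high side. Neither measure followed the sides.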

How the data were processed

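FPKM values as deposited, per the file headers, covered 45132 genes in each of 6 libraries. Per the submitters' processing notes, the tools were TopHat2 2.0.12, Bowtie2 2.2.3, HTSeq 0.6.1 and DESeq 1.18.0 with the build WBcel235. The FPKM program and the strandedness were not given in the sources used here, and antisense or overlapping genes are uncertain for that reason. A high ribosomal RNA share lowers every other FPKM slightly, and FPKM values are relative within a library. Symbols and positions came from RefSeq (WBcel235), where 45010 of the IDs were found.

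The comparison took the 12908 genes that reached 1 FPKM in 3 or more libraries, on log2(FPKM + 1), a scale that understates changes of low genes. Libraries were ranked by rol-6. High minus low was estimated by least squares with the RNAi group as a covariate and was given no test. The vit-5 RNAi group was tested in limma 3.58.1 under R 4.3.3 with Benjamini-Hochberg adjustment over all genes, and sums by exact 2-sided permutation. The 31 gene lists and the choice of sides were made with earlier results of these data known. Named genes were rol-6, sqt-1 and dpy-13, in each list up to 4 members with the largest differences and the one nearest its median, and the 10 highest and 10 lowest genes with a mean of at least 10 FPKM and no overlap. Other genes were named after their values were seen. Python 3.11.15 and matplotlib 3.10.9 were used, and the procedure was tested on simulated data. Alternatives were a pseudocount of 0.1, no filter, no covariate, median-of-ratios and upper-quartile scaling, a replicate block, leaving out each library and, added after seeing the data, ribosomal RNA out of the sum.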

Additional observations from a re-analysis of the deposited data

Results flagged for a closer look

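In 8 results every difference went one way between the sides within control and the other way within vit-5 RNAi, on the log2(FPKM + 1) scale, and these differences between the groups were not tested. The value given for each is the high minus low difference within vit-5 RNAi less that within control. The median level of the 22 patched-related genes gave 0.52, from -0.17 within control to 0.36 within vit-5 RNAi. By the median of the members' own differences the list was 0.02 within control and 0.61 within vit-5 RNAi, so by that summary the signs did not differ. Among single genes vha-5, for a subunit of the proton pump V-ATPase, gave 1.22, from -0.26 to 0.96. The neurexin-like gene itx-1 gave 0.79, the axonal kinesin unc-104 gave 0.74, the heterochronic gene lin-14 gave 0.64 and the lipid-binding protein gene lbp-6 gave 0.64, all negative within control and positive within vit-5 RNAi. Over all genes compared the median difference was itself below 0, at -0.19 within control and -0.03 within vit-5 RNAi. Within control itx-1 at -0.20, unc-104 at -0.18 and the patched-related level at -0.17 lay near that median, so their negative sign there is not particular to them. The sperm gene ssp-31 gave -0.37 and the ribosomal protein gene rpl-21 gave -0.66, both positive within control and negative within vit-5 RNAi.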

How the results depend on the processing

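The larval body shape median of 3.47 lay between 3.15 and 3.85 under every alternative, and the germline median of -0.55 between -0.67 and -0.44. The 518 higher genes became 792 with median-of-ratios scaling and 371 to 864 when 1 library was left out, 864 without control 2. Leaving out a library also loosens the rule of no overlap, so these counts are not on equal terms with 518 and 83. The 83 lower genes became 198 with a pseudocount of 0.1, 52 with median-of-ratios scaling and 75 to 162 with 1 library left out. Without the covariate the molting median was 0.39 and the vitellogenin median -0.28, and with 1 library left out they ran from 0.38 to 0.86 and from -1.94 to -0.82. The adult collagen median of -0.55 rests on 2 genes, reversed to 0.13 with no filter, was -1.30 with median-of-ratios and -1.33 with upper-quartile scaling, and ran from -0.97 to -0.14 with 1 library left out. The cause was not tested. With control 1 or vit-5 RNAi 3 left out, 1 group keeps libraries on 1 side only. Each median then equals the value within the other RNAi group. Those values are the ends of the ranges given for the molting, vitellogenin, adult collagen and germline lists, so these ends are no separate check.

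Genes passing for the vit-5 RNAi group were 0, and 0 to 5 with 1 library left out, 2 with ribosomal RNA out of the sum and 1588 with the rol-6 side as a covariate. With the replicate block 3806 passed. Deviations of same-numbered libraries correlated at 0.75, 0.03 and 0.68, and vit-5 RNAi 2 correlated best with control 1, so the numbers were not taken as pairs. Of 1694 planned values of the named genes 1509 moved by less than the spread, 185 moved by more and 0 reversed. The all-gene median of -0.10 became -0.01 with median-of-ratios and -0.04 with upper-quartile scaling. Without counts no counting interval can be given.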

Other observations

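Gene families grouped by symbol prefix, after their values were seen and with no test, had medians above 0 on the rol-6-high side, although most of their members did not pass the count. Over all genes compared 4.01% were higher. Among 73 neuropeptide-like nlp genes compared, some of which are also in the hypodermal defence list, the median difference was 0.99 and 20 were higher, and among 26 insulin-like ins genes it was 0.81 with 5 higher. The insulin-like gene ins-33 had 1.23, 1.51 and 2.61 FPKM in vit-5 RNAi 1, control 1 and vit-5 RNAi 2 and 14.9, 17.96 and 24.3 FPKM in control 2, control 3 and vit-5 RNAi 3. Its difference of 2.98 stood above that of every other ins gene, and its sides did not overlap. At the low end of the same family, ins-34 had 20.1, 14.4 and 16.96 FPKM against 15.9, 12.4 and 4.12 FPKM. Secreted peptide genes named nssp had a median of 0.90, with 22 of 85 higher.

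Families with negative medians included fbxb, genes with an F-box, at -0.54 over 32 genes, and npp, nuclear pore genes, at -0.46 over 25. In both families 0 genes were lower by the count.

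The adult somatic and defence list was mixed, with a median of 0.43. Of 22 compared 2 were higher and 1 lower, beside 4.01% and 0.643% of all genes. The lectin gene clec-60 had 2.76, 0.428 and 5.14 FPKM on the low side and 2.39, 13.8 and 29.4 FPKM on the high side, so control 2 lay among the low libraries. The lectin gene clec-85 was lower, with 377, 594 and 347 FPKM against 339, 219 and 170 FPKM. Outside that list, gpdh-1, for a glycerol-3-phosphate dehydrogenase known from osmotic stress, had 27.3, 89.2 and 29.9 FPKM against 19.4, 20.8 and 13.8 FPKM.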
